A study of Rattus norvegicus with 48 samples.

Results

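The transcripts of 3 genes of the oxidative stress response, Hmox1, Nqo1 and Gclc, were followed across 48 RNA sequencing libraries of rat liver slices. The genes were chosen by name for their role and were found in the count table by identifier: ENSRNOG00000014117 (Hmox1), ENSRNOG00000012772 (Nqo1) and ENSRNOG00000006302 (Gclc). They are 3 of the 32883 genes in the table, and all 3 were among the 14775 genes that passed the filter on low counts.

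Precision-cut slices are thin sections of living liver kept in culture. The libraries came from Rattus norvegicus and formed 5 groups: Sham_veh, sham-operated with vehicle (n = 9), BDL_veh, bile duct ligated with vehicle (n = 10), BDL_Sora (n = 10), BDL_Nint (n = 10) and BDL_SB525334 (n = 9). Bile duct ligation (BDL) blocks bile flow and is a common way to produce cholestatic liver fibrosis in rodents. Every compound group was ligated, and no sham group received a compound. Sora and Nint are taken here to stand for the kinase inhibitors sorafenib and nintedanib, although the labels hold only the short forms. SB525334 inhibits the kinase of the TGF-beta type I receptor, ALK5, and the sample sheet calls 9 of 9 libraries of that group by a different compound code. Doses, culture times, animal age and strain are not in the labels, nor is the number of animals, so p-values measure the spread between libraries and several libraries may share an animal. Slices hold all liver cell types, and the labelled tissue was not checked against markers, because identifiers were paired with symbols for these 3 genes only.

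Hmox1 encodes heme oxygenase 1, the inducible enzyme that opens the heme ring and releases biliverdin, iron and carbon monoxide. In liver it is prominent in Kupffer cells and is induced in hepatocytes by heme and oxidants. Nqo1 encodes NAD(P)H quinone dehydrogenase 1, a cytosolic enzyme that reduces quinones to hydroquinones. Gclc encodes the catalytic subunit of glutamate-cysteine ligase, which carries out the rate-limiting step of glutathione synthesis. All 3 are textbook targets of NRF2, a transcription factor that KEAP1 holds at low levels in unstressed cells and that binds antioxidant response elements in promoters and enhancers. Hmox1 is also repressed by BACH1, a heme-sensing factor that competes for the same elements, and each gene has further inputs.

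The Nqo1 promoter is shown because Nqo1 fell with ligation and this sequence lies wholly before the annotated gene. RefSeq (build GRCr8) places the 250 bases before its start at chr19:52220268-52220517 on the minus strand. Capitals mark the match to the loose element TGANNNNGC.

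Nqo1 promoter: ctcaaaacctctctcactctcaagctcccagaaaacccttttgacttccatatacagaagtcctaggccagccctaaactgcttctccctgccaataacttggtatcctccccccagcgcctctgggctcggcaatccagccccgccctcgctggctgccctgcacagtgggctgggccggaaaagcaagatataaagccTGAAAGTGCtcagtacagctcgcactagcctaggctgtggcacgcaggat

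That single match lies on the strand of the gene and ends 42 bases before the start. It was not compared with any element described for this gene. The same loose element is in 34.7% of 33469 RefSeq rat promoter windows of this length, searched on both strands. The stricter core TGACNNNGC (10.1% of windows) and the AP-1 site TGANTCA (6.34%) had 0 matches in the Nqo1 window. Every match to the core is also one to the loose element. The Gclc window had 0 matches to any of the 3 motifs, but 225 of its 250 bases lie inside the annotated gene, downstream of that gene's outer end, so it covers little sequence upstream of it. These letters describe the windows only, and more distant elements were not searched. The promoter table held 2 of the 3 genes.

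Library totals ranged from 12249470 to 29596987 counts, with group medians between 13629248 (BDL_Nint) and 16766306 (Sham_veh). Levels are given as CPM, read counts scaled to a common library size after TMM scaling, a correction for RNA composition. The lowest read count of the 3 genes in any library was 1127, for Gclc in BDL_Sora. CPM is not per gene length, so levels are compared between libraries and not between genes. Some features of the libraries touch the results. Mean TMM factors were lower in Sham_veh (0.878) and BDL_SB525334 (0.839) than in BDL_veh (1.12), BDL_Nint (1.10) and BDL_Sora (1.07). Reads that mapped to more than 1 place made up 14.4% ± 3.44 (SD) of BDL_SB525334, 11.3% ± 0.923 of Sham_veh and 8.54% ± 0.235 of BDL_veh. Within BDL_SB525334, libraries 1, 6 and 8 had the fewest such reads, 9.85% to 11.3%, against 13.4% to 20.9% in the other 6. Library 4, at 20.9%, lay farther from the next highest, at 16.7%, than these 3 lay from the rest. Fold changes and ratios for this compound are given with and without libraries 1, 6 and 8, a cut made with these data known.

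**Figure D1:**
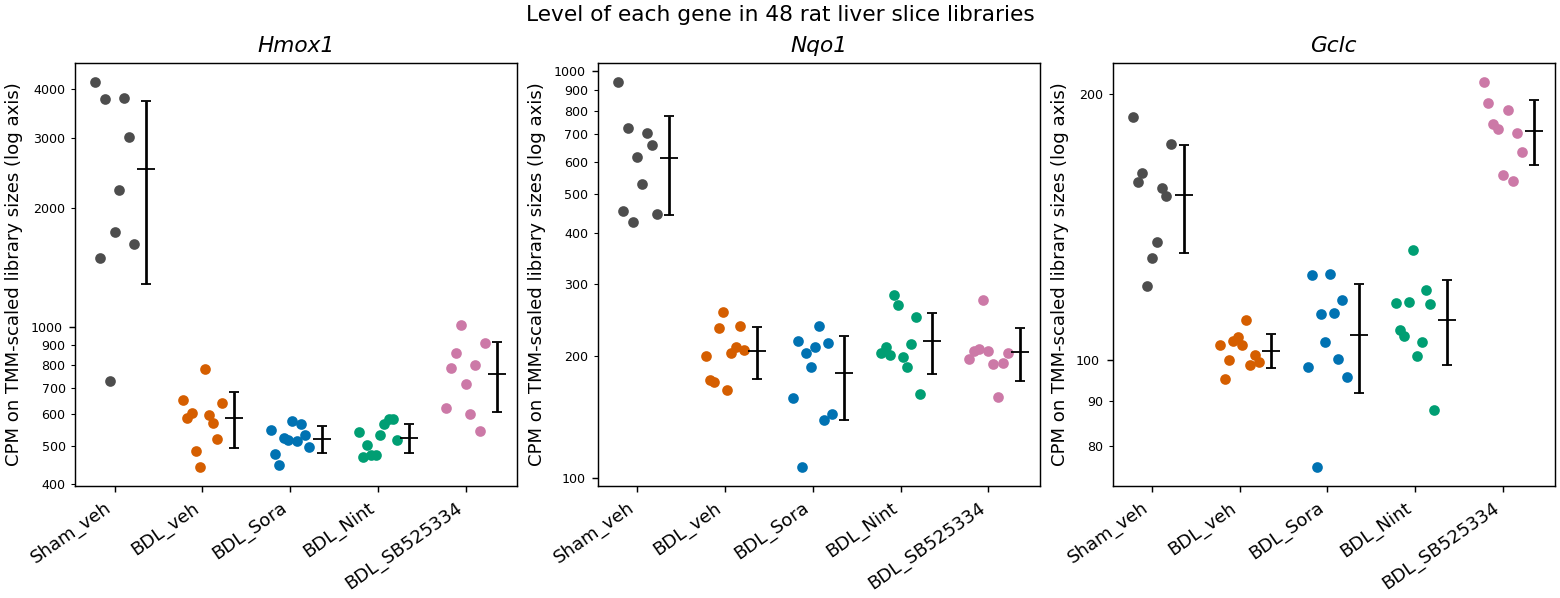
CPM on TMM-scaled library sizes (log axis) of Hmox1, Nqo1 and Gclc in each of 48 libraries, by group; points are libraries and the bar beside them is the mean ± SD. Hmox1 and Nqo1 are highest in Sham_veh, while Gclc is highest in BDL_SB525334.

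All 3 genes were lower in ligated than in sham slices under vehicle, Hmox1 most and Gclc least. Hmox1 was 4.26-fold lower, Nqo1 2.96-fold lower and Gclc 1.5-fold lower in BDL_veh than in Sham_veh. The comparison asks how slices of ligated liver differ from sham slices under the same vehicle. In whole tissue, fewer cells that express a gene and less RNA per cell cannot be told apart.

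Hmox1 ranged from 729 to 4156 CPM in Sham_veh (median 2223), a spread that no ligated group approached: its coefficient of variation was 48.7% in Sham_veh and 20.2%, the widest of the ligated groups, in BDL_SB525334; it was 16.3% in BDL_veh and 7.68% in BDL_Sora. In BDL_veh it ranged from 443 to 783 CPM (median 592). The groups overlapped through 1 library of each: sham library 4, at 729, lay below BDL_veh library 6, at 783, while the next lowest sham library had 1494. Means were 2504 ± 1219 CPM (SD, n = 9) and 588 ± 95.7 (SD, n = 10), a log2 fold change of -2.09 (SE 0.175, edgeR quasi-likelihood test with Benjamini-Hochberg adjustment over all genes tested, adjusted p = 4.22e-15). That standard error and p rest on a spread shared with the tighter ligated groups and overstate the precision. In a fit of the 2 groups alone the difference was -2.01 (edgeR adjusted p = 1.39e-07).

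Nqo1 ranged from 426 to 939 CPM in Sham_veh (median 615) and from 165 to 256 in BDL_veh (median 205). All 10 ligated libraries lay below all 9 sham libraries. The difference was -1.57 on that scale, with a standard error of 0.131 (edgeR, adjusted p = 3.56e-15), and means of 611 ± 168 and 206 ± 30.01 CPM.

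Gclc ranged from 121 to 188 CPM in Sham_veh (median 157). In BDL_veh it was tightly held between 95.3 and 111 CPM (median 103), and the groups did not overlap; with total counts they did, at 105 to 156 in Sham_veh and 108 to 126 in BDL_veh. Means were 154 ± 21.4 and 103 ± 4.44 CPM, which gave a log2 difference of -0.58 with a standard error of 0.0734 (edgeR, adjusted p = 6.92e-10).

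These calls stand in a transcriptome that moved widely. Between BDL_veh and Sham_veh 82.2% of the genes tested passed the same threshold, 42.2% as lower, and 25.2% were lower with no overlap between the groups. A call in any single gene is therefore near the background of this comparison. By size, the change in Hmox1 was larger than that of 80.8% of tested genes, that of Nqo1 larger than 74.7% and that of Gclc larger than 41.0%. With total counts in place of TMM, the median of all genes moved from -0.05 to 0.30 on the log2 scale, and the 3 genes remained lower at -1.73, -1.21 and -0.23. Non-uniquely mapped reads differed between these groups, as given above. Intronic reads were 24.4% to 31.1% in Sham_veh and 33.7% to 36.8% in BDL_veh, and mitochondrial reads 2.02% to 2.46% and 1.33% to 1.54%, each without overlap. The part of these measures in the falls was not tested.

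Gclc fell less in proportion than Hmox1 and Nqo1, while Hmox1 and Nqo1 were not told apart. A ratio of 2 genes' read counts within a library is untouched by how libraries are scaled, although its absolute size depends on gene length. The median count ratio of Nqo1 to Gclc was 4.29 in Sham_veh and 1.998 in BDL_veh, a mean log2 difference of -0.96 with no overlap (exact permutation test, two-sided, adjusted p = 9.28e-05 over 30 ratio tests, 17 of which passed). Hmox1 to Gclc fell from 16.3 to 5.91, a log2 difference of -1.35 (exact permutation test, adjusted p = 0.000354). Hmox1 to Nqo1 was 4.20 in sham and 3.02 in ligated slices, and its log2 difference of -0.39 did not pass (exact permutation test, adjusted p = 0.121). Ratios of other gene pairs were not computed, so ratio calls and separations here and below have no background share beside them. The median absolute log2 fold change of all genes tested between BDL_veh and Sham_veh was 0.745, so ratio shifts need not be particular to these genes.

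**Figure D2:**
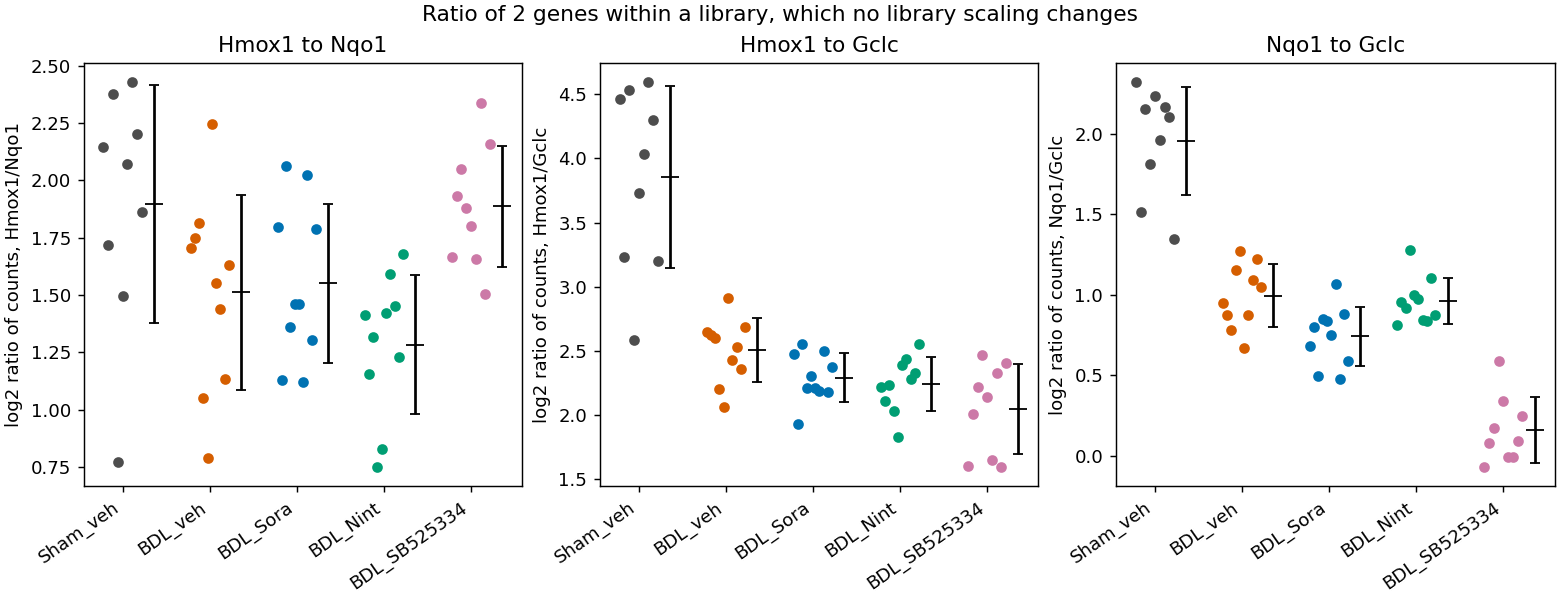
Log2 ratio of read counts for each pair of genes, by group; points are libraries and the bar beside them is the mean ± SD. For Nqo1 to Gclc the 9 BDL_SB525334 libraries lie below every Sham_veh, BDL_veh and BDL_Nint library, while Hmox1 to Nqo1 overlaps between all groups.

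With SB525334 Gclc rose 1.77-fold over ligated vehicle slices, and Nqo1 was not called different from them. Hmox1 was 1.29-fold higher by the test used here, but that call did not hold under most other settings and turned to -0.05 on the log2 scale with total counts. The comparison asks how ligated slices with the compound differ from ligated slices with vehicle, and 73% of the genes tested were called in it (38.2% higher).

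Gclc ranged from 159 to 206 CPM in BDL_SB525334 (median 183). All 9 libraries lay above the highest BDL_veh library, at 111 CPM, as 18.5% of genes tested did without overlap. The log2 fold change was 0.82 (95% interval 0.68 to 0.97, SE 0.0735, edgeR adjusted p = 6.47e-14), with means of 182 ± 15.3 and 103 ± 4.44 CPM. Without libraries 1, 6 and 8 it was 0.78. With total counts, which moved the median of all genes from 0.04 to -0.38, it was 0.41 and still called, with no overlap. Intronic reads were 26.0% to 33.1% and mitochondrial reads 2.19% to 4.49% in BDL_SB525334, and the part of these measures was not tested.

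Gclc in BDL_SB525334 also exceeded its level in sham slices, by a log2 difference of 0.24 ± 0.0752 (SE, edgeR adjusted p = 0.00341), although only 3 of 9 libraries lay above the highest sham library. Without libraries 1, 6 and 8 it was 0.20 (edgeR adjusted p = 0.0288). With total counts it was 0.18 (edgeR adjusted p = 0.0347). By size, the TMM value was larger than the change of only 18.9% of tested genes. In this comparison 81.2% of genes were called, 42.9% as higher. The order of mean Gclc levels was thus BDL_SB525334, Sham_veh, BDL_Nint, BDL_Sora and BDL_veh. The last 3 were not called different from one another.

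Nqo1 ranged from 158 to 275 CPM in BDL_SB525334 (median 204), within which library 4 alone exceeded 208. Mean levels were 204 ± 30.6 and, in BDL_veh, 206 ± 30.01 CPM. The log2 difference was -0.01 with an interval of -0.28 to 0.25 (edgeR adjusted p = 0.925), so that modest changes in either direction lie within the interval. Without libraries 1, 6 and 8 the difference was 0.03. With total counts it was -0.44 and passed the test (edgeR adjusted p = 0.00231), close to the median of all genes on that scale. The log2 difference in Nqo1 from Sham_veh was -1.58 with no overlap between groups (edgeR adjusted p = 1.03e-14), as in 17.9% of genes tested in that direction, and it was -1.54 without libraries 1, 6 and 8.

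The count ratio of Nqo1 to Gclc, which does not depend on scaling, was lower with SB525334 in every library than in any BDL_veh library. Its median was 1.07 against 1.998 in BDL_veh, a mean log2 difference of -0.83 (exact permutation test, adjusted p = 9.28e-05). Of these genes, then, Gclc rose relative to Nqo1 in the same libraries. Hmox1 to Gclc fell from a median of 5.91 to 4.41 (log2 difference -0.46, exact permutation test, adjusted p = 0.0108), a call that was lost without libraries 1, 6 and 8 (-0.24, adjusted p = 0.0809). Hmox1 to Nqo1 was 3.68 against 3.02, and its log2 difference of 0.38 did not pass (exact permutation test, adjusted p = 0.0546). It was 0.51 without libraries 1, 6 and 8 (exact permutation test, adjusted p = 0.0190). That is no further test, because those libraries were the lowest of the group in Hmox1. Nqo1 to Gclc was -0.76 without them, again with no overlap.

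Hmox1 ranged from 546 to 1011 CPM in BDL_SB525334 (median 786) and overlapped BDL_veh, with 5 of 9 libraries above its highest, at 783. Means were 761 ± 154 and 588 ± 95.7 CPM, and the log2 fold change was 0.37 (95% interval 0.03 to 0.71, SE 0.170, edgeR adjusted p = 0.0470). It was called in 5 of 14 other settings, and leaving out single libraries ended the call in 12 of 19 cases. Without libraries 1, 6 and 8 it was 0.53 (edgeR adjusted p = 0.0109), 1 of those 5 settings. These libraries had the lowest Hmox1 of the group, so leaving them out raises the value and is no further test. The log2 difference in Hmox1 from Sham_veh was -1.72 (edgeR adjusted p = 5.08e-12), with 4 of 9 libraries below the lowest sham library, and -1.56 without libraries 1, 6 and 8.

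**Figure D3:**
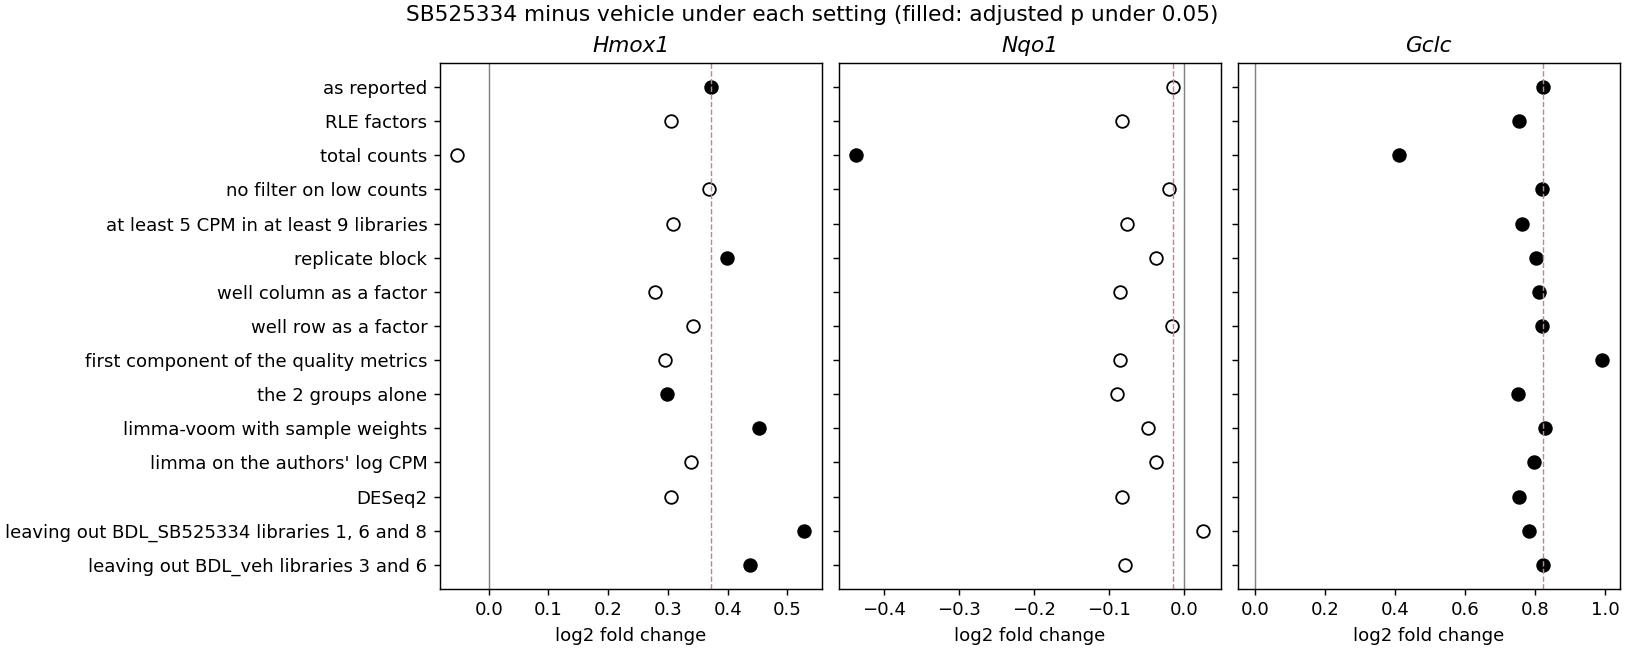
Log2 fold change between BDL_SB525334 and BDL_veh for each gene (panels) as reported and under 14 other settings (rows); filled points have an adjusted p under 0.05, the grey line is 0 and the dashed line is the value as reported. Gclc is filled throughout, from 0.41 to 0.99, while Hmox1 runs from -0.05 to 0.53 and changes between filled and open.

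Hmox1 in BDL_SB525334 varied together with read mapping and with the mitochondrial share of reads. Libraries 1, 6 and 8, with the fewest non-uniquely mapped reads, had the lowest Hmox1 levels, 546 to 624 CPM, inside the range of BDL_veh. The other 6 had 715 to 1011 CPM, and library 4 had both the most such reads, 20.9%, and the highest Hmox1. Over all 9 libraries Pearson's r of Hmox1 with non-uniquely mapped reads was 0.91 and Spearman's rho 0.92 (exact permutation, adjusted p = 0.0422 and 0.0394), and r was 0.88 without libraries 4 and 6, the farthest from the median. Without libraries 1, 6 and 8, which are lowest in both measures, r over the other 6 was 0.78 (exact permutation p = 0.0750). With mitochondrial reads, highest in library 4 at 4.49%, rho was also 0.92 (exact permutation, adjusted p = 0.0394), while r was 0.78 (adjusted p = 0.114) and 0.73 without libraries 4 and 6. Over 60 relations of a gene to a library measure within a group, computed after the data had been seen, these of Hmox1 were the only ones that passed. The part of either measure in the Hmox1 difference was not tested.

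**Figure D4:**
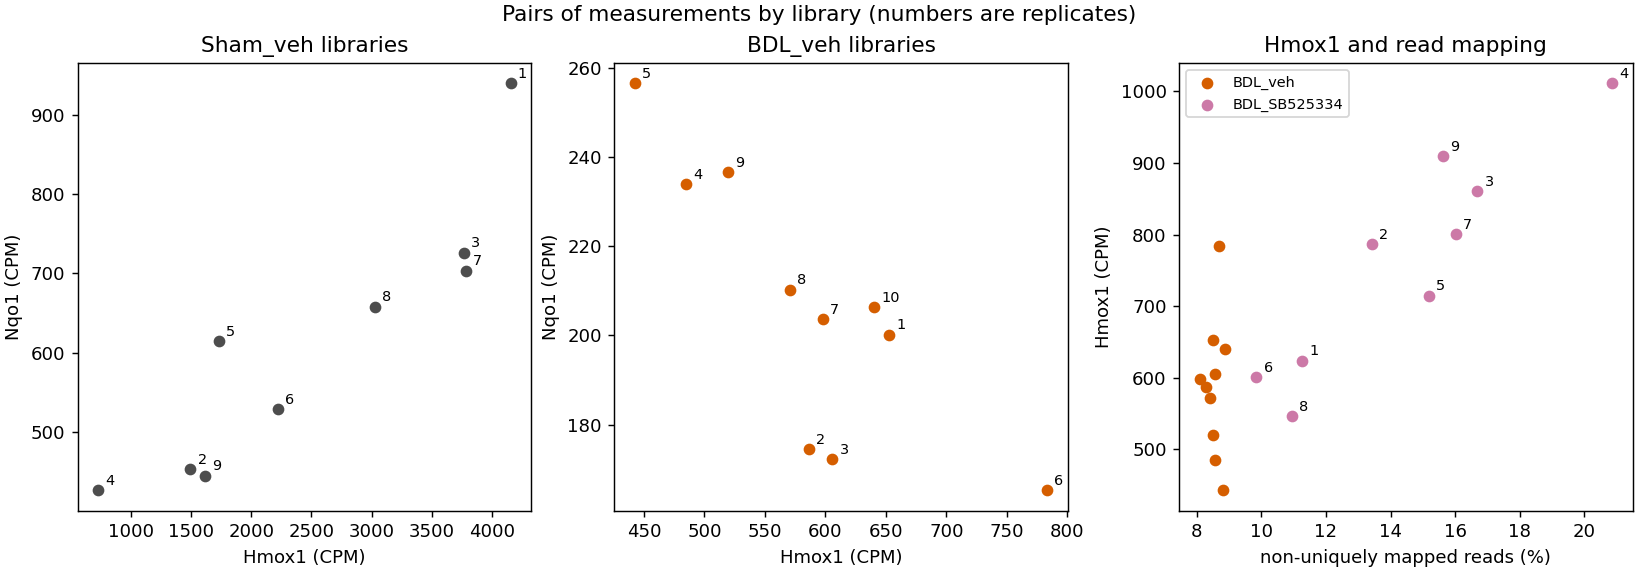
Left and centre: Nqo1 against Hmox1 (CPM) in Sham_veh and BDL_veh libraries; right: Hmox1 (CPM) against the percent of non-uniquely mapped reads in BDL_veh and BDL_SB525334. Numbers are library numbers; the slope is upward in sham and downward in BDL_veh, and BDL_SB525334 libraries 1, 6 and 8 lie within the Hmox1 range of BDL_veh.

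Sora and Nint moved none of the 3 genes past the threshold against BDL_veh, where 29.3% and 24.3% of genes tested were called. The 0 of 3 calls for each are not far from what those shares would give for so few genes. No unadjusted p was below 0.05 for either compound in the edgeR fit to all libraries. Of 14 other settings 1, the 2 groups alone, called Hmox1 for Sora.

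Hmox1 ranged from 447 to 579 CPM in BDL_Sora (median 519) and from 467 to 584 in BDL_Nint (median 524). Both ranges lay inside that of BDL_veh. Log2 differences from BDL_veh were -0.18 for Sora (95% interval -0.51 to 0.15, edgeR adjusted p = 0.456) and -0.17 for Nint (-0.50 to 0.17, adjusted p = 0.523). These intervals rest on a spread shared by all groups, among them the wide Sham_veh, and not on the ligated groups alone. In fits of the 2 groups alone Sora was at -0.20 (edgeR adjusted p = 0.0417) and Nint at -0.18 (edgeR adjusted p = 0.0786).

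Nqo1 ranged from 107 to 237 CPM in BDL_Sora (median 196), and 4 of 10 libraries lay below the lowest of BDL_veh, at 165. In BDL_Nint it ranged from 161 to 282 CPM (median 207). Log2 differences from BDL_veh were -0.18 (interval -0.43 to 0.07, edgeR adjusted p = 0.306) and 0.08 (interval -0.18 to 0.33, adjusted p = 0.727).

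Gclc ranged from 75.9 to 125 CPM in BDL_Sora (median 109) and from 88.0 to 133 in BDL_Nint (median 112), wider in both than in BDL_veh. In each, 5 of 10 libraries exceeded the highest BDL_veh library and 1 lay below the lowest. Log2 differences were 0.06 for Sora (interval -0.08 to 0.20, edgeR adjusted p = 0.584) and 0.11 for Nint (interval -0.03 to 0.26, adjusted p = 0.268).

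Within-library ratios differed in mean between a compound and vehicle in 2 cases, with overlap between the groups in both. Nqo1 to Gclc was lower with Sora than in BDL_veh, at a median of 1.71 against 1.998 (log2 difference -0.25, permutation test, adjusted p = 0.0185). Hmox1 to Gclc was lower with Nint, at 4.79 against 5.91 (log2 difference -0.26, permutation test, adjusted p = 0.0369). The remaining ratios of both compounds to BDL_veh did not pass.

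With both compounds all 3 genes were below their sham level. The log2 differences from Sham_veh in Hmox1 were -2.27 with Sora and -2.26 with Nint. In Nqo1 they were -1.75 and -1.49, and in Gclc -0.52 and -0.47. Each passed the edgeR test, where 80.4% (Sora; 40.3% lower) and 80.9% (Nint; 40.9% lower) of genes were called. For Hmox1 and Nqo1 neither group overlapped Sham_veh, as was so for 22.3% and 23.5% of genes in that direction; with total counts Hmox1 with Nint reached 648 CPM, above the lowest sham library at 633. Gclc overlapped in both, and for Nint against sham its call was lost with total counts (log2 -0.15, edgeR adjusted p = 0.0825). All comparisons with sham share its 9 libraries.

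**Figure D5:**
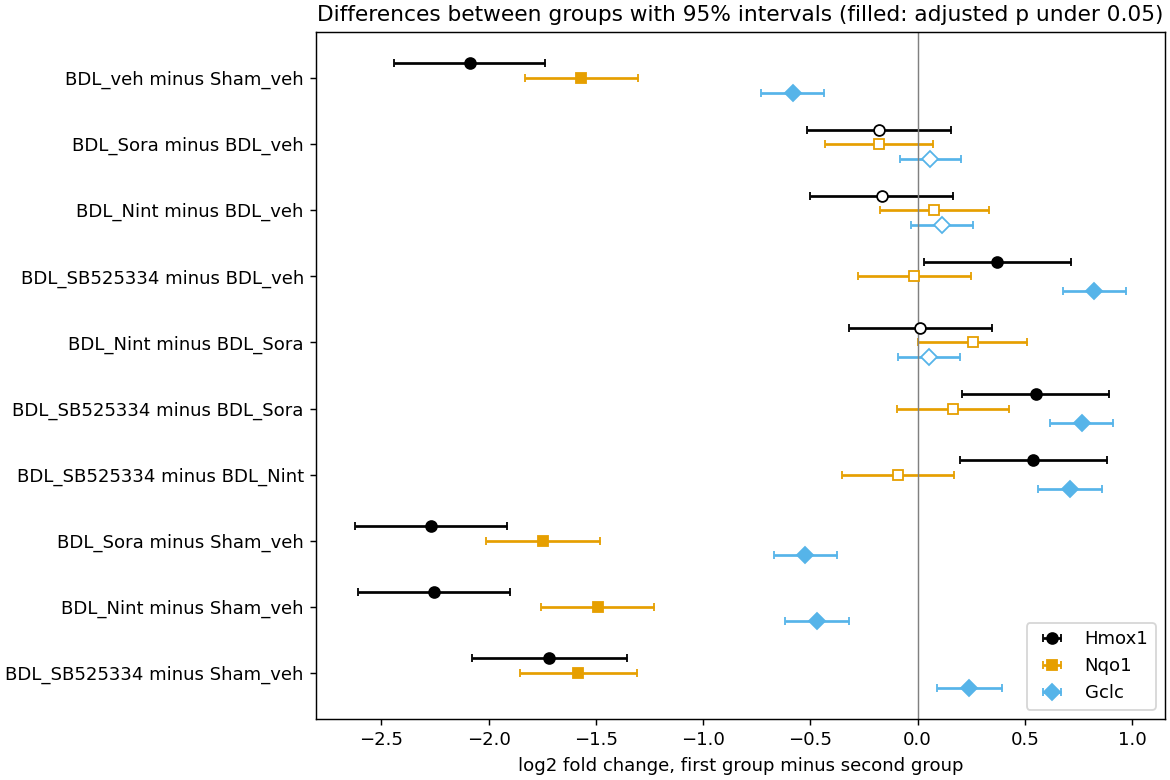
Log2 fold change of each gene in 10 comparisons, with 95% intervals; filled symbols have an adjusted p under 0.05. All symbols of Hmox1 and Nqo1 against Sham_veh lie left of 0, and Gclc lies right of 0 in each comparison of BDL_SB525334.

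Between compounds, SB525334 stood above the other two in Gclc and Hmox1. Gclc was higher by 0.76 than with Sora and by 0.71 than with Nint on the log2 scale (edgeR adjusted p = 7.45e-13 and 6.47e-12), in both cases without overlap. With total counts these were 0.41 and 0.33, still called, and both pairs of groups overlapped. They were 0.72 and 0.67 without libraries 1, 6 and 8. Hmox1 was higher by 0.55 and 0.54 (edgeR adjusted p = 0.00370 and 0.00447), with 8 of 9 libraries above the highest library of either group. In these comparisons 72.4% (36.1% higher) and 72.7% (36.4% higher) of genes were called, and 17.2% and 17.8% were higher without overlap. The Hmox1 calls were lost with total counts, at 0.18 and 0.14, and with the quality component as a covariate, at 0.49 and 0.47. That component ran from -15.5 to 1.04 in BDL_SB525334, 0.175 to 13.9 in BDL_Sora and 2.21 to 9.29 in BDL_Nint. It can hardly be told apart from the groups, and its part in Hmox1 was not tested. The Hmox1 differences were 0.71 and 0.70 without libraries 1, 6 and 8, which were the lowest of the group in Hmox1. Nqo1 differed by 0.17 from Sora (interval -0.10 to 0.43) and -0.09 from Nint (interval -0.35 to 0.17) and was called in neither. These were 0.21 and -0.05 without libraries 1, 6 and 8. With total counts they were -0.20 and, with a call, -0.48. Nqo1 to Gclc was lower than with Sora and Nint by log2 differences of -0.58 and -0.80 (exact permutation test, adjusted p = 0.000260 and 9.28e-05), or -0.51 and -0.72 without those libraries.

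None of the 3 genes was called between Nint and Sora. The largest of the differences was in Nqo1, 0.26 on the log2 scale (interval 0.003 to 0.51), with an unadjusted p of 0.0476 and an edgeR adjusted p of 0.311. Only 2.32% of genes were called between these compounds. The ratio of Nqo1 to Gclc was higher with Nint by 0.22 on the log2 scale (permutation test, adjusted p = 0.0165). On the TMM scale the order of mean levels was Sham_veh, BDL_SB525334, BDL_veh, BDL_Nint, BDL_Sora for Hmox1, whereas with total counts BDL_veh (657) lay above BDL_SB525334 (634). For Nqo1 it was Sham_veh, BDL_Nint, BDL_veh, BDL_SB525334, BDL_Sora, with no ligated group called different from another on that scale. With total counts BDL_SB525334 was lowest in Nqo1, at 170 against 196 in BDL_Sora, and was called different from BDL_veh and BDL_Nint.

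Within groups, few pairs of these genes showed a relation that passed, none of them Hmox1 with Gclc and none in BDL_SB525334. Of 15 relations between 2 genes within a group, 4 passed after adjustment for both Pearson's r and Spearman's rho. In Sham_veh Hmox1 and Nqo1 rose together, with library 1 highest and library 4 lowest in all 3 genes (r = 0.88, rho = 0.95, exact permutation adjusted p = 0.0136 and 0.00529); without libraries 1 and 4 r was 0.88.

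In BDL_veh the same genes ran in opposite directions: library 5 had the lowest Hmox1 and the highest Nqo1, and library 6 the reverse (r = -0.83, rho = -0.83, permutation adjusted p = 0.0136 and 0.0182). Without those libraries r was -0.63 over 8. Whether the relation differs between sham and ligated slices was not tested.

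Nqo1 and Gclc rose together in BDL_Sora (r = 0.93, rho = 0.85, permutation adjusted p = 0.00390 and 0.0135) and in BDL_Nint (r = 0.82, rho = 0.88, permutation adjusted p = 0.0143 and 0.0119). Without the pair of libraries farthest from the median in Nqo1, 3 and 8 in BDL_Sora and 4 and 5 in BDL_Nint, r was 0.86 and 0.84. Library 3 of BDL_Sora was lowest in all 3 genes.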

How the data were processed

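Per the labels' protocols, total RNA of the slices (RNeasy 96 kit) went into standard Illumina libraries. The submitters' processing notes name RSEM and edgeR, without versions, and the build Rnor_6.0. Aligner, annotation release and strand setting: not given in the sources used here; reads of overlapping or antisense genes may therefore be mixed. The authors deposited expected counts for 32883 genes, of which 8.02% of values were not whole and none of those for Hmox1, Nqo1 and Gclc; they were rounded. They also deposited log2 CPM for 14418 genes and 172 other scores and quality metrics, of which 151 entered a principal component (35.7% of variance). A deposited sample sheet gave the same group as the labels for 39 of 39 libraries outside BDL_SB525334.

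Groups came from the labels. Genes were filtered with filterByExpr and libraries scaled with TMM factors. edgeR 4.0.16 (R 4.3.3, robust quasi-likelihood test) was fitted to all 48 libraries with 1 coefficient per group, two-sided, in 10 comparisons. All groups thus share 1 estimate of spread per gene, also where their own spreads differ. Calls were made at 0.05 after Benjamini-Hochberg adjustment over 14775 genes. Standard errors came from the F statistic, and intervals are at the 95% level. Log2 ratios of counts within a library used a prior of 0.5. Ratios and correlations were tested by permutation in Python 3.11.15 with SciPy 1.17.1, exactly for groups under 10 libraries and otherwise with 1e+05 draws, and adjusted within 30, 15 and 60 tests. The fits were tested on simulated data in which few genes changed, so that test does not bear on the choice of scaling. Among 207 pairs of libraries of a group, chi-square per degree of freedom was 3.94 or more, so no library was counted as a copy of another.

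Alternatives were RLE factors, total counts, DESeq2 1.42.0, limma 3.58.1 (voom with sample weights, or the authors' log CPM as input), no filter, a filter of 5 CPM in 9 libraries, the 2 groups alone, the replicate number, well column, well row or quality component as a term, sets of libraries left out and single libraries left out. The rule for named genes was the 3 genes plus, for each, the 2 tested genes with the most similar profile. Lists of other NRF2 pathway genes and of cell type markers were not analysed here, because 0 of 32883 identifiers matched the reference table (GRCr8), which also serves here only for the promoter windows. The genes, lists and alternatives were chosen with earlier results of these data known.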

Additional observations from a re-analysis of the deposited data

Results flagged for a closer look

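Within BDL_SB525334, Nqo1 in library 4 was 274.7 CPM, far above the next highest library at 208 in a group that otherwise reached down to 158; on the log2 scale its gap to the nearest library was 0.505 of the group's range, above the 95% critical value of Dixon's test for 9 libraries. The same library had the highest Hmox1 of its group and the most non-uniquely mapped reads, while its Gclc, 183 CPM, was near the group's median. Of 15 combinations of gene and group tested, 1 passed this criterion, and chance passes about 1 in 20.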

How the results depend on the processing

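The falls with ligation in Hmox1 (-2.16 to -1.73 on the log2 scale), Nqo1 (-1.57 to -1.21) and Gclc (-0.76 to -0.23) kept direction and call in 14 of 14 other settings and in 19 of 19 fits that left out a library. The rise of Gclc with SB525334 against BDL_veh did so too (0.41 to 0.99; 0.80 to 0.85). Hmox1 in that comparison was weaker with RLE factors (0.31, adjusted p = 0.0999), no filter (0.37, 0.0700), the 5 CPM filter (0.31, 0.0922), well column (0.28, 0.202), well row (0.34, 0.103), the quality component (0.30, 0.448), limma on the authors' log CPM (0.34, 0.0832) and DESeq2 (0.31, 0.0901), and reversed with total counts (-0.053, 0.775). Leaving out single libraries gave 0.31 to 0.43, with the call lost without BDL_SB525334 libraries 2, 3, 4, 7 or 9 or BDL_veh libraries 2, 3, 4, 5, 7, 8 or 9. Leaving out BDL_veh libraries 3 and 6 together gave 0.44. Nqo1 in that comparison was -0.44 with total counts, 0.026 without BDL_SB525334 libraries 1, 6 and 8, and -0.078 to 0.026 without single libraries, above 0 without BDL_SB525334 library 7 or BDL_veh libraries 4, 5 or 9.

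With total counts, SB525334 against Sora was 0.18 in Hmox1 and -0.20 in Nqo1, SB525334 against Nint was 0.14 in Hmox1 and -0.48 in Nqo1 (adjusted p = 0.000860), and Nint against sham was -0.15 in Gclc. With the quality component Hmox1 was 0.49 against Sora and 0.47 against Nint. Hmox1 between Nint and Sora was -0.018 with well column, -0.060 with well row and -0.010 to 0.031 without single libraries, below 0 without BDL_Nint libraries 7, 8 or 9 or BDL_Sora libraries 2 or 3, and Gclc was -0.0070 with limma-voom. Hmox1 between Sora and BDL_veh passed in a fit of those groups alone (-0.20, adjusted p = 0.0417). With group medians, 20 of 30 ratio differences passed, Hmox1 to Nqo1 between Sora and BDL_veh was -0.13 and Hmox1 to Gclc between Nint and Sora 0.0052. Without BDL_SB525334 libraries 1, 6 and 8, a setting chosen for ratios after seeing the data, 18 passed, and with SB525334 Hmox1 to Nqo1 was 0.13 against sham and Hmox1 to Gclc 0.020 against Nint. The correlation of Hmox1 with Gclc in BDL_Nint was 0.12 with total counts and 0.021 with RLE factors. The cause of these changes was not tested.

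Over all genes, total counts turned the calls for SB525334 against BDL_veh from 5642 higher and 5143 lower to 2767 and 8516, and those for ligation from 5911 and 6235 to 7861 and 4035; RLE factors left the latter at 6348 and 5650. Calls between Nint and Sora numbered 343, against 598 with DESeq2, 1605 in the 2 groups alone, 3729 with limma-voom, 161 with well column, 173 on the authors' log CPM and 644 without BDL_SB525334 libraries 1, 6 and 8. For Sora against BDL_veh 4323 became 7597 with limma-voom, and for Nint 3587 became 6471, or 5674 in the 2 groups alone.

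Replicate numbers did not pair the libraries: 93 same-numbered pairs had a median correlation of 0.0130, and 25 exceeded 0.1. The replicate block changed no call of the 3 genes, with Hmox1 for SB525334 against BDL_veh at 0.40 (adjusted p = 0.0410).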

Other observations

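The genes with the profiles most like those of Hmox1, Nqo1 and Gclc carry identifiers without symbols here. The highest Pearson's r with Hmox1 over 48 libraries, 0.95, was that of ENSRNOG00000001456, at 478 ± 131 CPM in Sham_veh and 179 ± 10.4 in BDL_veh; for deviations from group means r was 0.83. The highest r with Nqo1, 0.95, was that of ENSRNOG00000017194, at 1703 ± 311 and 580 ± 46.8 CPM, and 0.83 for deviations. For Gclc it was ENSRNOG00000054963, with r of 0.92 overall and 0.49 for deviations, at 24.5 ± 2.78 CPM in BDL_veh and 85.2 ± 9.99 in BDL_SB525334. Among the 3 genes r over 48 libraries was 0.87 for Hmox1 with Nqo1, 0.55 for Hmox1 with Gclc and 0.47 for Nqo1 with Gclc. For deviations from group means the order was different, at 0.43, 0.31 and 0.66. The 0.43 pools groups in which Hmox1 and Nqo1 ran opposite ways, with r of 0.88 in Sham_veh and -0.83 in BDL_veh. By r over 48 libraries Nqo1 ranked only 613 among tested genes in likeness to Hmox1, and Gclc 3731. The values over 48 libraries and for deviations describe libraries in 5 groups that share the group differences, and they carry no test.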
